A study of Mus musculus with 7 samples.

Results

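The collagen genes examined here were every gene whose symbol reads Col, a number, the letter a and a number, which gave 44 of the 32285 genes listed in all 7 libraries. They comprised 11 fibrillar collagens, 6 chains of collagen IV, the basement membrane collagen, 6 chains of the beaded filament collagen VI, 9 fibril-associated collagens, 4 transmembrane collagens, 3 network-forming collagens, 2 multiplexins and 3 others. All 44 had at least 1 unique molecular identifier (UMI, 1 counted RNA molecule) in the analysed cells, with 98611 UMIs in all. Of these genes, 27 were counted in every library, and 13 had under 20 UMIs over the whole series. The number with a UMI was 39 in NEJ634, 31 in NEJ687, 39 in NEJ709, 40 in NEJ723, 39 in NEJ638, 35 in NEJ654 and 35 in NEJ677.

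Single cells of mouse liver had been profiled by droplet sequencing of RNA 3′ ends. Its model carries a human c-MYC transgene behind a floxed STOP cassette together with Cre recombinase under the albumin promoter (Alb-Cre and CAG-Myc, named ABC-Myc, on C57BL/6J), so that recombination is directed to cells that use the albumin promoter. In the study's account the tumors are NEJ634, NEJ687, NEJ709 and NEJ723, and it also describes 3 healthy livers, taken here to be NEJ638, NEJ654 and NEJ677. The sample labels call all 7 libraries the hepatoblastoma model, give neither ages nor the genotype of the healthy mice, and put no library in a group, so each library is given by its own value and no test was made between tumor and healthy liver. All livers had been digested with collagenase, which cuts the protein products of the genes described here, not their RNA.

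Collagens are proteins of several chains wound into a helix, and some form from identical chains and others only from chains encoded by different genes. Fibrillar types I, III and V give tissue its tensile strength, whereas collagen IV forms the sheet-like scaffold of basement membranes and collagen VI forms thin filaments beside cells. In liver, stellate cells and portal fibroblasts are known as the main makers of fibrillar collagen, and fibrosis is the excess of it.

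The 7 libraries held between 40214395 and 132485391 UMIs over all barcodes, and between 6716 and 17001 cells were analysed per library. Cell classes were set by marker genes that included no collagen, and are called "-like" for that reason. The mesenchymal-like cells were named in a second round of clustering within clusters, as the first round gave no cluster of that name. The mesenchymal-like class had 44 cells in NEJ634, 1 in NEJ687, 0 in NEJ709, 17 in NEJ723, 60 in NEJ638, 215 in NEJ654 and 66 in NEJ677. Endothelial-like cells numbered 698, 108, 11, 55, 2213, 1661 and 1650 in that order, and hepatocyte-lineage-like cells 1994, 173, 8, 2, 291, 458 and 650. Class values below come from pools of at least 20 cells unless stated. A level is the sum of a gene's UMIs over a class in 1 library in counts per 1e+06 UMIs of that pool (CPM), with an exact Poisson 95% interval that covers counting error only. A 3′ tag is counted once per molecule, and levels carry no length correction. Introns were counted as well, and the part of gene length in the levels of different genes was not tested.

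NEJ709 stood apart. Of its 13945 analysed cells, 12708 fell into 1 cluster, 92.3% of its cells stayed without a class name, and the label of this library also names NEJ634. Summed collagen in that cluster was 169.8 CPM (interval 165.7 to 173.9), beside 191 CPM (166 to 220.1) in the ambient profile of NEJ709, the summed RNA of the barcodes ranked 45000 to 90000 by UMIs. These barcodes held at most 460 UMIs in the other 6 libraries but up to 952 in NEJ634, above the 500-UMI minimum for cells, so free RNA and cells cannot be told apart in the ambient profile of NEJ634. Class values of NEJ709 are therefore given only where a named class reached 20 cells. Pairs of libraries shared between 10 and 178 cell barcodes; among mesenchymal-like cells 2 in NEJ634, 3 in NEJ638, 4 in NEJ654 and 1 in NEJ677 had a barcode also called elsewhere.

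Collagen RNA was concentrated in the mesenchymal-like class. Summed over the 44 genes, it reached 10594 CPM in NEJ634, 21534 in NEJ638, 4343 in NEJ654 and 6358 in NEJ677. Among the cells of NEJ723, the 17 that were mesenchymal-like, below the 20-cell minimum, held 33975 CPM. In endothelial-like cells the sum was 1822 CPM in NEJ634, 1739 in NEJ687, 2936 in NEJ723, 1837 in NEJ638, 1411 in NEJ654 and 1844 in NEJ677. Hepatocyte-lineage-like cells had 313 CPM in NEJ634, 267 in NEJ687, 495 in NEJ638, 511 in NEJ654 and 378 in NEJ677. These 3 classes thus kept the same order in each of the 4 libraries that held at least 20 cells of each, and their intervals did not touch.

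Because mesenchymal-like cells were few, they did not hold most of the collagen UMIs. They were 0.893% of the analysed cells of NEJ638 and held 30.4% (exact binomial interval 29.8 to 31.0) of its collagen UMIs, and 2.94% of the cells of NEJ654 with 29.5% (28.7 to 30.2). In NEJ677 the 0.889% of cells in the class held 16.4% (15.9 to 16.9), in NEJ723 the 0.137% held 26.8% (26.0 to 27.6) and in NEJ634 the 0.259% held 7.11% (6.76 to 7.47). Endothelial-like cells held more than mesenchymal-like cells in NEJ638, NEJ654 and NEJ677, with 54.4%, 48.3% and 60.5%. The same held in NEJ634 with 23.2%, but there unnamed cells held still more, 37.2%. In NEJ723 the endothelial-like share was 11.5% and that of unnamed cells 14.5%. A class with fewer cells in the tissue cannot be told apart here from a class recovered in fewer cells.

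Collagen UMIs were also found in the ambient profiles and in cells that should have none. The ambient profiles held between 146.5 CPM in NEJ687 and 338 CPM in NEJ723, T/NK-like cells between 13.5 and 63.9 CPM, and B-like cells between 28.8 and 119 CPM. Taken over all analysed cells, collagen was above the ambient profile beyond the intervals in 4 of 7 libraries, NEJ634, NEJ638, NEJ654 and NEJ677. In NEJ687 it was 71.3 CPM beside 146.5 in the ambient profile, in NEJ709 151 beside 191 and in NEJ723 146.7 beside 338. Mesenchymal-like and endothelial-like levels lay above the ambient profile in every library that held at least 20 cells of the class. In NEJ634, here and below, the ambient profile may itself include cells, so a comparison with it is not one with free RNA alone.

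Fibrillar collagens made up the larger part of the mesenchymal-like signal in NEJ634 and NEJ638. Their sum was 6358 CPM in NEJ634, 16684 in NEJ638, 1684 in NEJ654 and 2888 in NEJ677, against 91.5, 94.3, 22.3 and 32.8 CPM in the ambient profiles of the same libraries. The mesenchymal-like class had the highest fibrillar level of all named classes in 4 of 4 libraries. The 4 levels were spread widely, with the NEJ634 value between those of NEJ638 and NEJ677, so the library the study calls a tumor did not lie outside the range of the other 3. The 17 cells of NEJ723 gave 21626 CPM. The sizes depended on how cells were assigned, since a marker gate on single cells in place of clusters gave 1176 CPM in NEJ634 and clustering of NEJ638 on its own gave 5123 CPM there.

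Of the genes with at least 10 UMIs over both pools, collagens were at least 4-fold higher in mesenchymal-like cells than in all other cells of the same library for 20 of 27 in NEJ634, where 8.34% of all genes were. The same held for 18 of 26 in NEJ638 (7.35% of all genes), 13 of 25 in NEJ654 (4.38%) and 16 of 27 in NEJ677 (5.28%). With the 2 Poisson intervals also apart the counts were 15, 16, 11 and 14, beside 4.54%, 5.14%, 3.74% and 3.72% of all genes. The median log2 fold of the collagens entered was 5.11, 4.73, 2.16 and 3.09, beside -0.37, 0.11, 0.16 and 0.17 over all genes entered. The median of NEJ634 was the value of Col4a5, with 1 UMI in the class and 13 outside it. That of NEJ677 was the value of Col4a3, with 2 UMIs in the class and 12 outside it. For neither gene were the intervals apart, so both medians are uncertain in size. Since a gene counted in few UMIs can enter through the class in which it is high, these counts describe the genes entered and not all 44.

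Col3a1, the single chain of collagen III, had the highest level of any collagen in mesenchymal-like cells of NEJ634 and NEJ638, and shared the lead with Col14a1 in NEJ677 within counting error. It stood at 2688 CPM (2421 to 2977) in NEJ634, 8259 (7927 to 8601) in NEJ638, 988 (926 to 1052) in NEJ654 and 1420 (1321 to 1525) in NEJ677. All other cells of these libraries had 14.5, 24.5, 5.75 and 10.7 CPM of Col3a1, which made the class 185, 337, 172 and 132 times higher. All 4 levels differed from each other beyond counting error.

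Collagen I joins the chains of Col1a1 and Col1a2, and is the fibre collagen best known from scar and bone. Col1a1 had 1984 CPM (1755 to 2233) in mesenchymal-like cells of NEJ634, 3242 (3036 to 3459) in NEJ638, 80.8 (63.9 to 101) in NEJ654 and 420 (366 to 478) in NEJ677. Col1a2 had 1010 CPM in NEJ634, 3893 in NEJ638, 291 in NEJ654 and 629 in NEJ677. Libraries ranked the same for both genes, and Col1a1 spanned the wider range. Col1a1 was 66.3% of the UMIs of both chains in NEJ634 (exact binomial interval 61.5 to 70.8), 45.4% in NEJ638 (43.3 to 47.6), 21.7% in NEJ654 (17.6 to 26.3) and 40% in NEJ677 (35.9 to 44.2). NEJ634 was thus the one library of these with more Col1a1 than Col1a2, and NEJ654 the one with the lowest share of Col1a1. Over all analysed cells the share of Col1a1 was 62.4%, 67.5%, 67.6% and 55.2% in NEJ634, NEJ687, NEJ709 and NEJ723. It was 45.2%, 26.0% and 42.1% in NEJ638, NEJ654 and NEJ677.

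Col14a1, a fibril-associated collagen that binds the surface of fibrils, did not follow collagen I. Its mesenchymal-like level was 1170 CPM (996 to 1365) in NEJ634, 1453 (1316 to 1601) in NEJ638, 1247 (1178 to 1319) in NEJ654 and 1281 (1187 to 1381) in NEJ677. All 4 intervals overlapped each other, whereas for Col1a1 none did. The likeness was one of class sums, since among the sub-clusters of the class, numbered S1 to S9, Col14a1 ranged from 269.5 CPM in S9, with 103 of its 122 cells from NEJ654, to 3023 CPM in S5. In NEJ654 Col14a1 was the collagen with the highest level in the class.

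Collagen VI needs the chains of Col6a1 and Col6a2 together with a further chain, most often that of Col6a3. Col6a3 stood at 363 CPM in NEJ634, 424 in NEJ638, 86.9 in NEJ654 and 152 in NEJ677 in mesenchymal-like cells. Col6a1 gave 225, 523, 103 and 179.8 CPM and Col6a2 gave 167, 445, 50.1 and 89.9 CPM in the same order. All 3 chains were higher in NEJ638 than in NEJ654 and NEJ677 beyond the intervals. NEJ634 was above NEJ654 for all 3, but above NEJ677 beyond the intervals for Col6a3, while for Col6a1 (153 to 320 against 146 to 219.6) and Col6a2 (106 to 251 against 66.3 to 119) the intervals overlapped. The share of Col6a1 in the UMIs of Col6a1 and Col6a2 was 57.4%, 54.0%, 67.3% and 66.7%. In endothelial-like cells the summed collagen VI level was between 4.4 and 24.0 CPM. Col6a5, another possible further chain, had 27 UMIs in the whole series.

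Collagen V forms the core on which collagen I fibrils start. In mesenchymal-like cells Col5a1 had 327 CPM in NEJ634, 548 in NEJ638, 229 in NEJ654 and 264 in NEJ677, and Col5a2 had 327, 587, 71.6 and 129 CPM. Col5a3, the chain of a rarer form, had 7.27, 106, 5.11 and 1.87 CPM. Within the class most Col5a3 UMIs were in NEJ638, 30 of 40, whereas over all analysed cells 46 of 239 were, beside 62 in NEJ677 and 55 in NEJ634. Col15a1, a multiplexin of basement membrane zones, gave 65.4 CPM in NEJ634 and 56.6 in NEJ638, but 1.02 in NEJ654 and 13.1 in NEJ677.

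**Figure D1:**
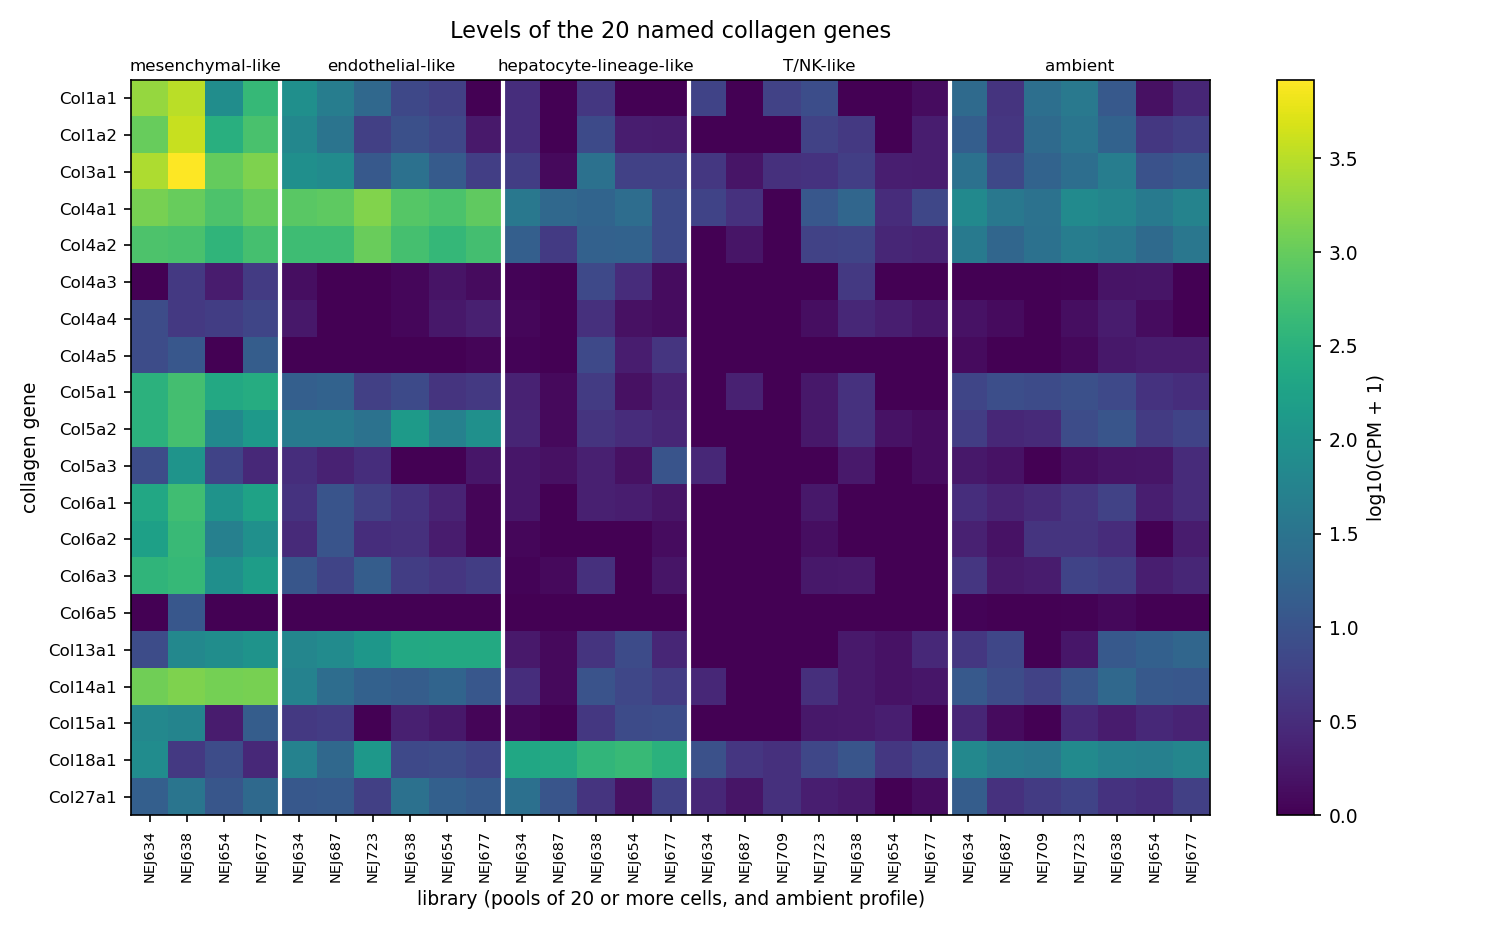
Levels as log10(CPM + 1) of the 20 named collagen genes (rows) in each class and library pool of at least 20 cells and in the ambient profiles (columns). Fibrillar chains, Col14a1 and collagen VI are bright in the mesenchymal-like columns, Col4a1, Col4a2 and Col13a1 in the endothelial-like columns, and Col18a1 in the hepatocyte-lineage-like columns.

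The libraries filled different mesenchymal-like sub-clusters. Of the 9 sub-clusters numbered S1 to S9, S1 held 42 cells, 41 of them from NEJ634, was led by Myh11, Postn and Tagln and had 9059 CPM of collagen with 1973 CPM of Col1a1 and 2089 of Col3a1. S2 held 16 cells, 14 of them from NEJ723, was led by Eln and Fbln5, and had 36055 CPM of collagen with 9378 of Col1a1, 5780 of Col3a1 and 5052 of Col4a1. Myh11 and Tagln are contractile genes of smooth muscle, and the smooth muscle marker list summed to 1740 CPM in S1 and 4536 in S2. Both sub-clusters drew nearly all their cells from libraries the study names as tumors, so the cell state and the library cannot be told apart in them.

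S4 and S5 came mainly from the other libraries. S4 held 23 cells, 20 of them from NEJ638, with portal fibroblast markers at 6589 CPM and the genes Mfap5 and Dpt in the lead. It had the highest collagen sum of the 9, 49971 CPM, with 19861 of Col3a1, 10825 of Col1a2, 9800 of Col1a1 and 628 of Col4a1. S5 held 40 cells, 23 from NEJ654 and 10 from NEJ638, with stellate cell markers at 16094 CPM and 10213 CPM of collagen. There Col14a1 at 3023 CPM and Col3a1 at 2724 exceeded Col4a1 at 1166, Col1a2 at 818 and Col1a1 at 177.8. S5 was thus low in Col1a1 and S4 high in it, and here too cell state and library cannot be told apart. S3, with 13 cells led by Eln and Mgp, 5 from NEJ638, 3 from NEJ654 and 3 from NEJ723, had 8690 CPM of Col3a1 and 4249 of Col1a1, with stellate markers at 2980 CPM and smooth muscle markers at 4566 CPM, a level like that of S2. Smooth muscle markers were at 586 CPM in S4 and 313 in S5.

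Endothelial markers summed to 1550 CPM in S1, 230 in S2, 770 in S3, 115 in S4 and 1280 in S5. The remaining sub-clusters, S6 to S9, had more of them, at 8291, 5758, 9031 and 6459 CPM. Their stellate markers were lower in each, at 5305, 5223, 6723 and 2234 CPM. They held 23, 83, 41 and 122 cells, of which 103 of the 122 in S9 and 61 of the 83 in S7 came from NEJ654. Their collagen sums were 5958, 3381, 5875 and 2095 CPM. In S7 Col14a1 had 987 CPM and Col1a1 17.8. The mesenchymal markers summed to 3371 CPM in the class in NEJ634, 11158 in NEJ638, 10853 in NEJ654 and 10190 in NEJ677, with all 11 of 11 markers detected, beside endothelial markers at 1395, 4865, 5813 and 7094 CPM. The part of the endothelial signal in the collagen levels of the class was not tested beyond leaving these sub-clusters out, which raised the fibrillar level of NEJ638 from 16684 to 35239 CPM and that of NEJ654 from 1684 to 5897 CPM. In NEJ677, S7 to S9 held 20, 16 and 19 of the 66 cells of the class, so that its class levels rest mostly on them, and too few cells were left without them to give a level.

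**Figure D2:**
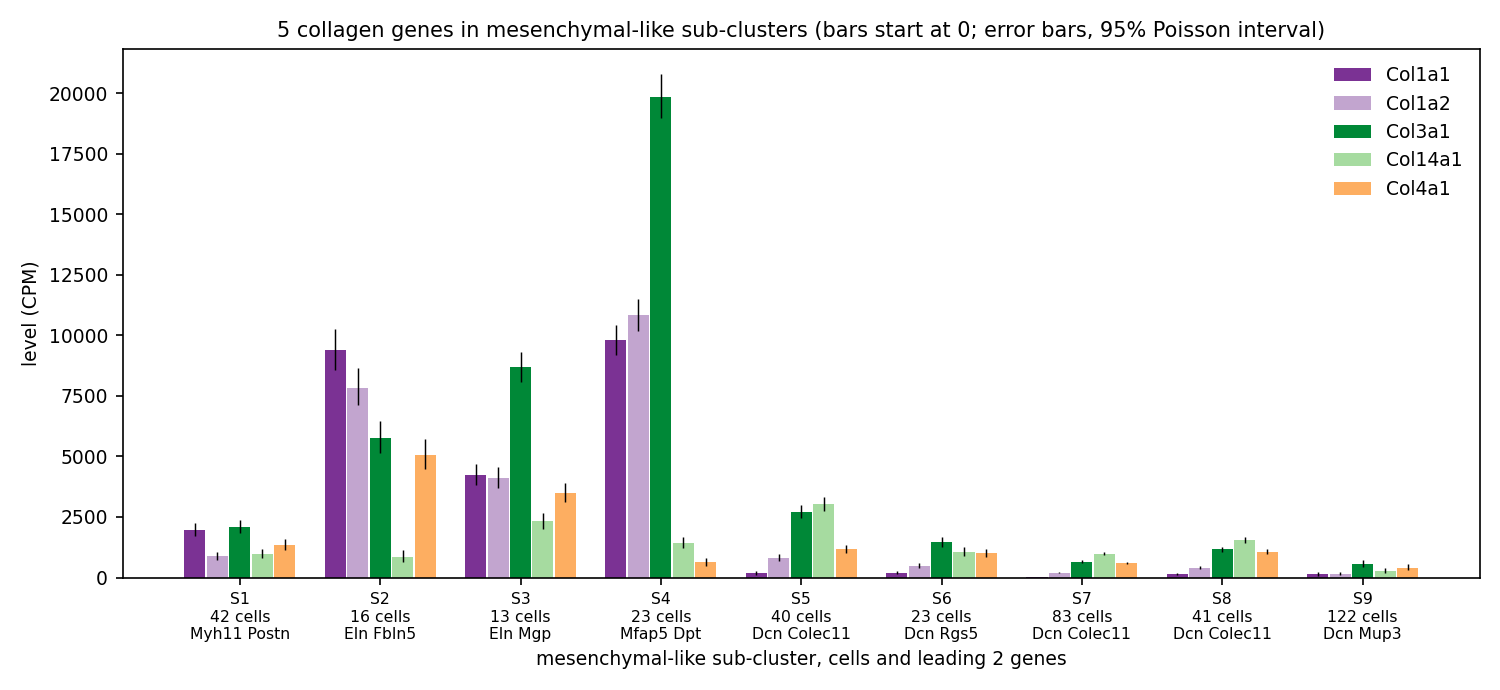
Levels in CPM of 5 collagen genes (bars from 0, with 95% Poisson intervals) in the mesenchymal-like sub-clusters S1 to S9, each with its cell number and leading genes. S4 has the tallest Col3a1 bar at 19861 CPM, S2 has Col1a1 and Col4a1 at 9378 and 5052 CPM, and in S5 Col14a1 stands above Col1a1.

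The share of cells with a Col1a1 UMI also differed between libraries. With each cell thinned to 500 UMIs, the share expected to hold Col1a1 was 59.8% of mesenchymal-like cells in NEJ634, 44.5% in NEJ638, 3.33% in NEJ654 and 9.63% in NEJ677. Exact binomial intervals of NEJ634 (43.3 to 73.7) and NEJ638 (32.1 to 58.4) overlapped. Unthinned, it was found in 100%, 63.3%, 11.2% and 30.3% of them, where the median cell held 2588, 4239, 1960 and 7722 UMIs. T/NK-like cells, which should lack the gene, gave between 0 and 0.314% after thinning and between 0 and 3.92% before it, at median depths between 1643 and 7725 UMIs. The exact binomial interval of NEJ654 was 1.32% to 6.59%, so the class lay above the T/NK-like share of its own library, 0 of 665 cells (upper limit 0.553%), while most of its cells had no Col1a1 UMI.

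Collagen IV was the main collagen of endothelial-like cells. Col4a1 and Col4a2 encode the chains of its most widespread form. The genes lie back to back on chromosome 8 (GRCm38), Col4a1 at chr8:11198423-11312826 on the minus strand and Col4a2 at chr8:11312805-11449287 on the plus strand, so that their annotated starts share 22 bases. The 30 bases at chr8:11312801-11312830, plus strand, are shown because both genes were high in the same classes, with the shared stretch in capitals.
Col4a1 and Col4a2 start: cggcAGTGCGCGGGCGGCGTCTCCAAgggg

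Col4a1 in endothelial-like cells had 818 CPM (783 to 853) in NEJ634, 867 (801 to 936) in NEJ687, 1499 (1388 to 1618) in NEJ723, 778 (756 to 801) in NEJ638, 640 (618 to 663) in NEJ654 and 904 (881 to 927) in NEJ677. NEJ723, with 55 cells, lay above all others beyond counting error, and the 2 other libraries named as tumors lay among those of healthy liver. Col4a2 gave 494, 497, 1065, 572, 402 and 555 CPM in the same order and again NEJ723 was highest. This ranking depended on how cells were assigned. With the marker gate on single cells, summed collagen IV in endothelial-like cells was 141 CPM in NEJ723 and 79.6 in NEJ687. It was 331 CPM in NEJ634 and 633 in NEJ654. Hepatocyte-lineage-like cells had 36.3 CPM of Col4a1 in NEJ634, 20.2 in NEJ687, 17.0 in NEJ638, 24.2 in NEJ654 and 6.72 in NEJ677. Endothelial-like levels were higher beyond the intervals in 5 of 5 libraries, and the hepatocyte-lineage-like levels lay below the ambient Col4a1 of 72.1, 35.7, 59.6, 39.4 and 56.1 CPM.

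Mesenchymal-like cells also held collagen IV. Their Col4a1 level was 1315 CPM in NEJ634 and 1022 in NEJ638, above the endothelial-like levels beyond the intervals, and 654 in NEJ654 and 974 in NEJ677, where the intervals overlapped, with Col4a2 at 668, 626, 368 and 569 CPM. These levels depended on how cells were assigned. With the marker gate on single cells, summed collagen IV in NEJ634 was 254 CPM in mesenchymal-like and 331 in endothelial-like cells. The gate gave 776 CPM in mesenchymal-like cells of NEJ638, and separate clustering gave 759 in those of NEJ634. Leaving out the endothelial-rich sub-clusters S6 to S9 instead raised the sum in mesenchymal-like cells of NEJ654 to 1949 CPM, 1.90 times the main value. In that library S7, S8 and S9 held 61, 25 and 103 of the 215 cells of the class. Col4a1 made up between 57.7% and 66.3% of the UMIs of both chains over all mesenchymal-like and endothelial-like pools. Thinned to 500 UMIs, between 24.8% and 51.6% of endothelial-like cells of the 6 libraries were expected to hold Col4a1, against 0 to 0.820% of T/NK-like cells. The signal was spread over many cells, with 2132 UMIs in 517 of 698 cells of NEJ634 and 6128 in 1397 of 1650 cells of NEJ677. Over the whole series Col4a1 had 28127 UMIs, 17493 of them in endothelial-like cells, and Col4a2 had 17428, with 11364 in that class.

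Col13a1, a transmembrane collagen that sits at cell contacts, was low in the endothelial-like cells of some libraries and high in others. It had 61.4 CPM (52.2 to 71.7) in NEJ634, 76.0 (57.6 to 98.5) in NEJ687 and 116.9 (87.3 to 153) in NEJ723. In NEJ638, NEJ654 and NEJ677 it had 233 (221 to 246), 237 (224 to 251) and 240.6 CPM (229 to 253). The intervals of the latter 3 overlapped each other, and all lay above those of the former 3. The endothelial markers of the same cells moved with Col13a1, at 5368, 8507 and 7580 CPM in NEJ634, NEJ687 and NEJ723 and 12369, 14408 and 14519 in NEJ638, NEJ654 and NEJ677. Hepatocyte markers in them stood at 2998, 643 and 677 CPM in the former and 1367, 2003 and 1026 in the latter, and the part of either in the Col13a1 levels was not tested. Col5a2 followed a looser form of the same pattern, with 38.4 CPM in NEJ634, 38.7 in NEJ687, 29.2 in NEJ723, 137 in NEJ638, 52.2 in NEJ654 and 91.9 in NEJ677, and the interval of NEJ654 (46.0 to 59.0) overlapped those of NEJ634 (31.2 to 46.7), NEJ687 (25.9 to 55.5) and NEJ723 (15.6 to 49.97). Of 5579 Col13a1 UMIs in the series 4473 were in endothelial-like cells.

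Both Col13a1 and Col3a1, the leading fibrillar chain of mesenchymal-like cells, have a TATA motif (the letters TATAAA) in the 250 bases before their RefSeq start, and these are shown as promoters of genes with different cell classes and base composition. Capitals mark the motif, which begins 117 bases before the start in Col3a1 and 237 in Col13a1. The Col3a1 stretch lies at chr1:45311288-45311537 on the plus strand with 35.2% G and C, and that of Col13a1 at chr10:61979109-61979358 on the minus strand with 68.8%, where the median promoter had 52.4% (GRCm38.p6). Neither stretch overlaps an annotated exon.
Col3a1: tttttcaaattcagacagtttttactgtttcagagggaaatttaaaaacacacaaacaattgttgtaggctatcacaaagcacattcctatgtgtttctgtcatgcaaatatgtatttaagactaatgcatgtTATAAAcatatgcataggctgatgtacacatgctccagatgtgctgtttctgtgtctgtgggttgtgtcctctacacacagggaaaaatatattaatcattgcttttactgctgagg
Col13a1: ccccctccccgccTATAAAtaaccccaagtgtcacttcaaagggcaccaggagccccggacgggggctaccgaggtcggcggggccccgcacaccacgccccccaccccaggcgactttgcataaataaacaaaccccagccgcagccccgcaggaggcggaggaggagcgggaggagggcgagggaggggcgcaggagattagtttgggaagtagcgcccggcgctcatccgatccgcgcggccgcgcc

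RefSeq promoters were matched for 35 of the 44 genes, giving 38 promoters. Searched on both strands, TATAAA was in 5 of these 38 and in 12.4% of all 32851 promoters, CCAAT in 13 of 38 and 33.8%, and GGGCGG, the letters of the GC box, in 22 of 38 and 32.7%. A match is a string of letters and was not tested as a site. No entry was matched for Col1a1, Col2a1, Col4a3, Col5a2, Col9a3, Col12a1, Col14a1, Col22a1 and Col26a1.

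The Col1a1 and Col3a1 UMIs of endothelial-like cells in NEJ634 and NEJ687 came from a few cells. Col1a1 had 88.6 CPM in NEJ634, 45.3 in NEJ687, 20.2 in NEJ723, 6.07 in NEJ638, 4.45 in NEJ654 and 0 in NEJ677 (0 UMIs, Poisson upper limit 0.544). In NEJ634 the 231 Col1a1 UMIs lay in 23 of 698 cells, and 153 of them in 1 cell. In NEJ687 33 of 34 UMIs lay in 1 of 108 cells. Col3a1 showed the same, with 157 of 227 UMIs in 1 cell of NEJ634 and 55 of 58 in 1 cell of NEJ687. The class levels of both genes in these libraries thus rest largely on single cells. Col5a2, the fibrillar chain with the most UMIs in the class, was spread more widely in the libraries with many cells, with 814 UMIs in 575 of 2213 cells of NEJ638 and 623 in 394 of 1650 of NEJ677, whereas 40 of its 100 UMIs in NEJ634 lay in 2 cells.

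The endothelial-like cells were also split by how many of the 11 mesenchymal markers had a UMI in the cell. Among cells with at most 1, Col1a1 had 4.50 CPM in NEJ634 (650 cells), 1.95 in NEJ687 (88), 20.3 in NEJ723 (51), 2.40 in NEJ638 (2059), 0 in NEJ654 (1517) and 0 in NEJ677 (1514). Among those with 2 or more it had 575 CPM (48 cells), 139 (20), 19.8 (4), 45.7 (154), 34.6 (144) and 0 (136). Col3a1 had 9.45, 1.95, 12.7, 5.71, 1.86 and 1.35 CPM in the former cells and 536, 240.3, 0, 266, 83.4 and 26.2 in the latter. Col13a1 kept its order in cells with at most 1 such marker, with 58.5, 87.8 and 112 CPM in NEJ634, NEJ687 and NEJ723 and 234, 241 and 246 in NEJ638, NEJ654 and NEJ677. Col4a1 in these cells was between 634 and 1552 CPM. Col1a1 and Col3a1 thus moved with mesenchymal markers in the same cells in NEJ634, NEJ687, NEJ638 and NEJ654, as did Col3a1 in NEJ677, and the order of Col13a1 was there with few such markers. In NEJ634 and NEJ687 most UMIs of each of Col1a1 and Col3a1 lay in 1 cell with 2 or more such markers. The difference there rests largely on single cells. Col5a2 had 28.8, 29.3, 27.9, 137, 48.6 and 93.6 CPM in cells with at most 1 such marker and 93.7, 59.0, 39.5, 137, 77.1 and 79.9 in the others, with intervals apart in NEJ634 and NEJ654.

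**Figure D3:**
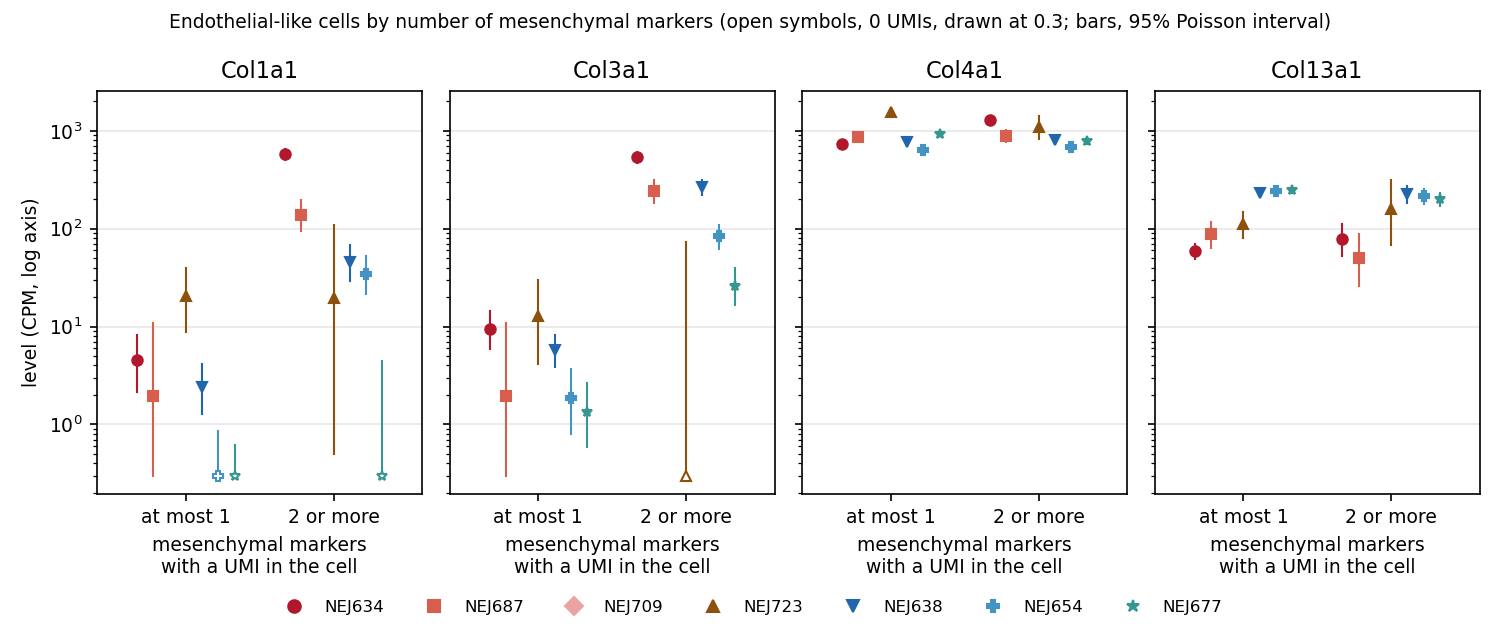
Levels in CPM on a log axis of collagen genes in endothelial-like cells with at most 1 and with 2 or more mesenchymal markers, with 1 symbol per library and 95% Poisson intervals. Col1a1 and Col3a1 are higher in the latter cells of NEJ634, NEJ687, NEJ638 and NEJ654, as is Col3a1 in NEJ677, Col4a1 is between 634 and 1552 CPM in both kinds of cell, and Col13a1 is above 200 CPM in NEJ638, NEJ654 and NEJ677 in both. In NEJ634 and NEJ687 most UMIs of each of Col1a1 and Col3a1 lay in 1 cell.

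By the same 4-fold measure, 14 of 27 collagens entered were higher in endothelial-like than in all other cells of NEJ634 (8.78% of all genes), 12 of 19 in NEJ687 (17.1%) and 11 of 27 in NEJ723 (13.7%). In NEJ638, NEJ654 and NEJ677 the counts were 5 of 26 (12.7%), 6 of 25 (8.45%) and 6 of 27 (10.5%). With intervals apart the 6 counts were 13 (7.67% of all genes), 11 (14.5%), 9 (11.0%), 5 (12.2%), 5 (8.20%) and 6 (10.2%). These counts again describe only the genes entered. In NEJ687, Col5a2 (29 UMIs in the class and 4 outside) and Col6a1 (7 and 5) entered only through the class. Col1a1 and Col3a1 are among the genes counted in NEJ634 and NEJ687, where they rest largely on single cells, which the intervals do not cover. The other cells differ between these libraries, being mostly blood-forming or unnamed cells in the first 3, so the counts are not compared between libraries.

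Col18a1, whose product is a basement membrane collagen with the endostatin fragment at its end, had the highest level of any collagen in the hepatocyte lineage. Its level there was 215 CPM (206 to 224) in NEJ634, 229.7 (215 to 245) in NEJ687, 373 (349 to 398) in NEJ638, 434 (405 to 465) in NEJ654 and 319.6 (299.7 to 341) in NEJ677. The ambient profiles held 67.1, 43.5, 52.9, 49.9 and 61.6 CPM and T/NK-like cells between 2.45 and 9.63 CPM. NEJ634 and NEJ687 were thus lower than the other 3, and the 3 differed among themselves. The 10 hepatocyte markers of the same cells summed to 20983, 21229, 84238, 103650 and 59491 CPM, which is the same order of libraries as for Col18a1, and their part in the result was not tested. Hepatocyte-lineage-like cells of libraries named as tumors and of healthy liver may be different cells under 1 name. The first-round cluster with the highest Col18a1 level held 704 cells, with 317, 246 and 133 from NEJ638, NEJ654 and NEJ677. Cell kind and library thus cannot be told apart in the Col18a1 levels. NEJ709 and NEJ723 had 8 and 2 cells of the class, but in cholangiocyte-like cells Col18a1 had 95.7 CPM (75.3 to 120.0) in NEJ709 (44 cells) and 89.6 (84.9 to 94.5) in NEJ723 (323 cells).

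The hepatocyte-lineage-like cells held 82.7%, 82.6% and 80.5% of all Col18a1 UMIs of NEJ638, NEJ654 and NEJ677, 72.7% in NEJ687 and 39.1% in NEJ634, where unnamed cells held 47.1%. The level was 3.04 times that of all other cells in NEJ634 and 31.1 to 48.9 times in the other 4 libraries. Over the series Col18a1 had 13758 UMIs, 5959 in this class and 7437 outside the 3 classes. In endothelial-like cells Col18a1 had 53.3 CPM in NEJ634, 20 in NEJ687 and 124 in NEJ723, but 6.24, 7.09 and 5.31 in NEJ638, NEJ654 and NEJ677. The NEJ723 value, above its ambient level of 73.8 CPM, rests on 55 UMIs in 16 cells, 28 of them in 2 cells. Endothelial-like cells with at most 1 mesenchymal marker had 59.4, 17.6 and 129 CPM in the former 3 libraries and 5.90, 6.97 and 4.88 in the latter. The ambient level of 67.1 CPM in NEJ634 was above the endothelial-like value there, and what part free RNA has in it was not tested.

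Apart from Col18a1, collagens were below 50 CPM in the hepatocyte lineage. Col15a1 was nonetheless found there, with 13 of 26 UMIs of NEJ654 and 22 of 41 of NEJ677 in these cells. Its level was 0.185 CPM in NEJ634, 0 in NEJ687 (0 UMIs, Poisson upper limit 0.955), 3.32 in NEJ638, 6.83 (3.64 to 11.7) in NEJ654 and 7.39 (4.63 to 11.2) in NEJ677, and in NEJ654 and NEJ677 it was 10.3 and 9.67 times that of all other cells. Col27a1, a fibrillar collagen first known from cartilage, had 27.0 CPM (24.0 to 30.3) in NEJ634 beside 13.3 in the ambient profile, 9.84 in NEJ687, 2.91 in NEJ638, 0.526 in NEJ654 and 4.70 in NEJ677. NEJ634 was above all others. Fibrillar collagens in sum were between 9.46 and 48.6 CPM. At least 4-fold higher than in all other cells were 0 of 27 collagens entered in NEJ634 (0.527% of all genes), 2 of 19 in NEJ687 (13.8%), 4 of 26 in NEJ638 (11.0%), 4 of 25 in NEJ654 (9.52%) and 4 of 27 in NEJ677 (10.2%). With intervals apart the higher genes were 0 (0.430%), 2 (13.5%), 4 (10.9%), 2 (9.30%) and 4 (10.0%). These counts, too, describe only the genes entered.

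Col5a1 was found without its partner chains in a cluster outside these classes, chosen for description once its values were known. The cluster of 1018 cells, 609 from NEJ687, 303 from NEJ723 and 56 from NEJ634, was led by Car1 and stayed unnamed, and erythroid markers summed to 4765 CPM in NEJ634, 10817 in NEJ687 and 14993 in NEJ723, with 10 of 10 detected. Col5a1 had 25.9 CPM (18.03 to 36.0) in NEJ634, 35.8 (32.3 to 39.5) in NEJ687 and 50.6 (45.6 to 56.0) in NEJ723. It was counted in 20 of 56, 156 of 609 and 140 of 303 cells, with no more than 13 UMIs in any cell of NEJ687. The same cells held 0, 0 and 1 UMIs of Col5a2 and none of Col5a3, against 35, 383 and 374 of Col5a1.

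Col1a1, Col3a1 and mesenchymal markers were low in the same cells. The cells had 1, 3 and 5 UMIs of Col1a1 and 0, 4 and 9 of Col3a1, with 3, 5 and 22 of Col4a1, and the mesenchymal markers summed to 5.92, 5.14 and 4.87 CPM. Within the cluster, the 92 cells led by Prss34, Mcpt8 and Cpa3, genes of basophils and mast cells, had 6.94 CPM of Col5a1, and 55 cells led by Mir155hg, Tnip3 and Areg had 0 UMIs, with a Poisson upper limit of 7.88 CPM. Erythroid-like cells had between 5.02 and 15.7 CPM of Col5a1 and T/NK-like cells between 0 and 2.63 CPM. Col5a2 was also low in erythroid-like cells, with 1 UMI beside 8 of Col5a1 in NEJ634 and 1 beside 181 in NEJ687. The values were 4 beside 23 in NEJ709, 28 beside 240 in NEJ723 and 0 beside 5 in NEJ638. Over all analysed cells, Col5a1 was 51.0%, 94.8%, 67.6% and 83.6% of the UMIs of Col5a1 and Col5a2 in NEJ634, NEJ687, NEJ709 and NEJ723 and 17.7%, 39.5% and 18.9% in NEJ638, NEJ654 and NEJ677. In mesenchymal-like cells that share was 50%, 48.3%, 76.2% and 67.1% in NEJ634, NEJ638, NEJ654 and NEJ677.

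**Figure D4:**
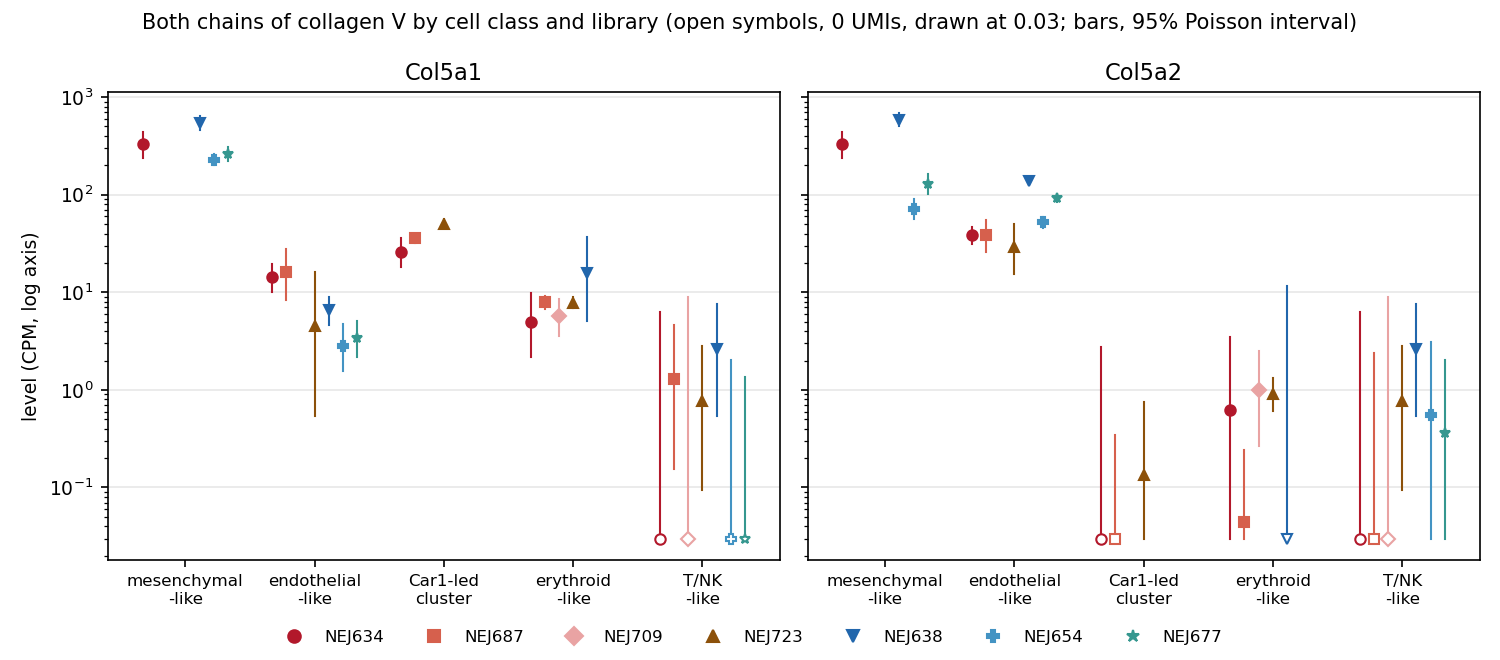
Levels in CPM on a log axis of Col5a1 and Col5a2 by cell class and library, with 95% Poisson intervals and open symbols for pools with 0 UMIs. In the Car1-led cluster Col5a1 is between 25.9 and 50.6 CPM in NEJ634, NEJ687 and NEJ723 while Col5a2 has 1 UMI or none.

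Genes that fold, process and bind collagen were taken as lists, and several of their members were high in the same cells. In mesenchymal-like cells at least 4-fold higher were 9 of 19 folding and modifying enzymes in NEJ634, 8 of 18 in NEJ638, 7 of 18 in NEJ654 and 7 of 18 in NEJ677. Of the propeptide processing and crosslinking genes the counts were 6 of 10, 8 of 9, 6 of 10 and 9 of 10, and of collagen receptors 5 of 9, 4 of 8, 3 of 8 and 2 of 8. Breakdown genes gave 6 of 9, 4 of 9, 2 of 8 and 3 of 9, fibrogenic ligands and receptors 2 of 10, 4 of 10, 2 of 10 and 2 of 10, and basement membrane partners 11 of 12, 8 of 12, 7 of 12 and 8 of 12, a list that includes Bgn, which was also a marker of the class. All these shares stood beside the 4.38% to 8.34% of all genes given above.

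Serpinh1, the collagen chaperone HSP47, had 334 CPM in NEJ634, 990 in NEJ638, 361 in NEJ654 and 322 in NEJ677, or 18.8, 11.7, 9.48 and 8.26 times the level of other cells. Pcolce, which speeds removal of the collagen propeptide, was 37.0, 23.8, 12.6 and 12.2 times higher. Adamts2, the protease for the other end, was 93.6, 194, 121 and 218 times higher. The gelatinase gene Mmp2 (85.0, 188, 339 and 446 times) and Ddr2, a receptor for fibrillar collagen (33.7, 68.0, 41.0 and 90.7 times), were also far higher in the class. P4hb, a general folding enzyme, was not, at 0.782, 1.60, 1.16 and 1.54 times, nor was Tgfb1, at 0.860, 0.813, 1.17 and 1.49 times.

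In endothelial-like cells, basement membrane partners at least 4-fold higher were 7 of 12 in NEJ634, 10 of 10 in NEJ687, 9 of 12 in NEJ723, 7 of 12 in NEJ638, 6 of 12 in NEJ654 and 7 of 12 in NEJ677, beside 8.78%, 17.1%, 13.7%, 12.7%, 8.45% and 10.5% of all genes. Hspg2, the heparan sulfate proteoglycan perlecan, was 9.94, 89.3, 27.8, 12.4, 7.79 and 9.71 times higher than in other cells. Itga1, a subunit of the integrin that binds collagen IV, was 9.07, 47.4, 20.4, 7.07, 5.71 and 7.91 times higher. Loxl2, a crosslinker of collagen IV, was 12.2, 37.4, 15.1, 7.18, 6.73 and 9.40 times higher. The lists that hold Itga1 and Loxl2 are given for each library. The other cells differ between libraries, so these counts and medians are not compared between them. Collagen receptors at least 4-fold higher were 3 of 9, 5 of 7, 4 of 9, 1 of 8, 1 of 8 and 2 of 8. Processing and crosslinking genes gave 5 of 10, 3 of 7, 3 of 11, 2 of 9, 2 of 10 and 4 of 10. The median log2 fold of receptors was 1.58 in NEJ634, 2.73 in NEJ687 and 1.82 in NEJ723, and that of processing and crosslinking genes was 2.15 in NEJ634 and 1.33 in NEJ687, with none given for NEJ723, where most genes of that list had no UMI in the class. The median log2 fold of both lists was negative in NEJ638, NEJ654 and NEJ677, at -1.42, -0.74 and -1.94 for receptors and -2.22, -1.31 and -1.51 for processing and crosslinking, where the median over all genes was 0.52, 0.33 and 0.35.

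The other lists in endothelial-like cells are likewise given for each library and not compared between libraries. Folding and modifying enzymes at least 4-fold higher were 8 of 19 in NEJ634, 12 of 18 in NEJ687, 10 of 18 in NEJ723, 7 of 18 in NEJ638, 1 of 18 in NEJ654 and 7 of 18 in NEJ677. Breakdown genes gave 3 of 9, 4 of 8, 3 of 9, 2 of 9, 2 of 8 and 2 of 9 in that order, and fibrogenic ligands and receptors 2, 5, 4, 0, 1 and 3 of 10. These stand beside the same shares of all genes (8.78%, 17.1%, 13.7%, 12.7%, 8.45% and 10.5%), which the folding enzymes of NEJ654 and the fibrogenic genes of NEJ638 did not reach.

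Patterns like those of the collagens were sought over 83 pools of class and library, which share libraries and depth. For Col1a1 the closest of 15263 genes by Pearson correlation of log2(CPM + 1) were Lox (0.835), Lama2 (0.824), Cygb (0.816), Mrc2 (0.809) and Eln (0.809), and among collagens Col3a1 (0.874) and Col1a2 (0.869). For Col4a1 they were Sparc (0.919), Sema6a (0.896), Bgn (0.888), Hspg2 (0.886) and Nr2f2 (0.886), with Col4a2 (0.944), Col5a2 (0.857) and Col13a1 (0.813) among collagens. These values are descriptions over pools, not independent samples.

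The remaining collagens were rare. Several had most of their UMIs outside the mesenchymal-like, endothelial-like and hepatocyte-lineage-like classes. These were Col11a2 (803 UMIs, 765 of them outside), Col7a1 (210, with 196 outside) and Col9a3 (163). The same held for Col20a1, Col23a1, Col12a1 and Col4a4, with 87, 73, 135 and 76 UMIs there. Those other cells were also most of the analysed cells of each library, so these shares do not show a higher level outside the classes. Col12a1 was 17.96, 37.6, 5.24 and 27.9 times higher in mesenchymal-like than in all other cells of NEJ634, NEJ638, NEJ654 and NEJ677. It had 2, 9, 2 and 6 UMIs in the class, and the intervals were apart in all of these libraries but NEJ654. Col8a1, a network-forming collagen, had 72 of its 151 UMIs in mesenchymal-like cells and stood at 383 CPM in S2. Col12a1 had 222 UMIs, Col16a1 190, Col4a4 119, Col20a1 109, Col23a1 108, Col4a5 91, Col4a3 66, Col11a1 60, Col17a1 59 and Col25a1 35. Col11a1, a fibrillar collagen of cartilage, had 37 of its 60 UMIs in NEJ723. In a first-round cluster of 128 cells led by Igfbp6 and Dcn, which held mesenchymal-like, cholangiocyte-like and mesothelial-like sub-clusters, Col4a4 had 44.7 CPM (31.0 to 62.5) and Col16a1 46.0 CPM (32.1 to 64.0), beside 0.272 and 0.497 CPM in all other cells. Under 20 UMIs were counted for Col2a1, Col4a6, Col6a4, Col6a6, Col8a2, Col9a1, Col9a2, Col10a1, Col19a1, Col22a1, Col24a1, Col26a1 and Col28a1, of which Col24a1 had 13 of its 19 UMIs in mesenchymal-like cells.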

How the data were processed

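Droplet libraries of 7 mouse livers were analysed. The deposited values are unnormalized counts of UMIs per gene and barcode, made by the authors with Cell Ranger (version 6.0 per the labels, 4 in the file headers) with introns counted and all barcodes kept; the genome build is not given in the sources used here. Labels call the libraries single-cell in places and nuclear in others.

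Barcodes were called as cells by a top-count rule and a test against ambient RNA (10000 draws, adjusted p of at most 0.01), and those above 500 UMIs with no more than 20% of them mitochondrial were kept. NEJ634, NEJ709 and NEJ723 reached the limit of 20000 tested barcodes. Scrublet scores marked at most 4 cells per library by their own threshold, which has not worked, so the highest scores were removed at 0.8% per 1000 cells. The 72584 cells left were clustered without the 44 collagens (2000 variable genes, 40 components, 15 neighbours, Leiden resolution 1), giving 41 clusters, and again within clusters of 50 or more cells, giving 414; this second round was added after seeing the data. Classes were named from 127 markers of 18 classes (mean log2 fold of at least 1.5, a lead of 1, 3 markers up). The name exocrine pancreas was withheld from the Car1-led cluster, whose pancreas markers were near 0 in its cells of NEJ634, NEJ687 and NEJ723. Ctrb1 and Try4 were nonetheless among its leading genes, and led a sub-cluster of 8 cells with 0 Col5a1 UMIs.

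UMIs were summed per class and library, with exact Poisson intervals. Shares of cells thinned to 500 UMIs are expected values from the hypergeometric chance of at least 1 UMI. Folds needed 10 UMIs over both pools, a pool at 0 was set to 3 UMIs, and a class without a UMI was never called higher, an exception added after seeing the data. Named genes were the 8 collagens with the most UMIs in each class (at least 20), their chain partners, and from each list the leading 3 in mesenchymal-like and 2 in endothelial-like cells; other genes were named after their values were seen. No test between groups was made, since labels give none. Members and lists were chosen with earlier results of these data known. Coordinates are from GENCODE M21 and RefSeq (GRCm38.p6). The calling and naming were tested on simulated data. Tools were Python 3.11.15, scipy 1.17.1, scanpy 1.11.5, leidenalg 0.10.2 and scikit-image 0.26.0.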

Additional observations from a re-analysis of the deposited data

Results flagged for a closer look

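Barcodes with over 500 UMIs that were not called as cells also held collagen RNA. Summed over the 44 genes, they had 281 CPM in NEJ634 (46762 barcodes), 65.9 in NEJ687 (826), 161 in NEJ709 (10199), 372 in NEJ723 (9587), 163 in NEJ654 (433) and 295 in NEJ677 (238), while NEJ638 had no such barcode. These were singled out because they lie outside the cells compared and above the limit that a count of 0 allows. The ambient profiles of the same libraries held 297 CPM in NEJ634, 146.5 in NEJ687, 191 in NEJ709, 338 in NEJ723, 168 in NEJ654 and 224 in NEJ677.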

How the results depend on the processing

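The mesenchymal-like class had the highest fibrillar level in 4 of 4 libraries, in 3 of 3 with the 99th percentile rule for cells alone, in 3 of 4 with every barcode of over 500 UMIs and in 5 of 6 with a per-cell marker gate. Col4a1 was higher in endothelial-like than hepatocyte-lineage-like cells in 5 of 5 or 6 of 6 libraries under all alternatives run. The median number of collagens at least 4-fold higher in mesenchymal-like cells was 17, between 12 and 20.5 under the alternatives. All 44 collagens had a UMI except under stricter quality limits, which left 43. Collagen exceeded the ambient profile in 4 of 7 libraries, or 3 with haemoglobin and mitochondrial UMIs left out of the total. The first round of clustering alone named no mesenchymal-like cluster, and with it Col4a1 was higher in endothelial-like cells in 5 of 5 libraries. Of 45 levels, the per-cell gate moved 19 by over 1.5 times, separate clustering of each library 6, subtraction of ambient UMIs 4, and stricter limits and every barcode 2 each. The largest move was with the gate, to 0.0548 times the main value, for summed collagen IV in endothelial-like cells of NEJ723. Leaving out the endothelial-rich sub-clusters moved 5 of 42, by up to 3.50 times, and the 99th percentile rule 4 of 39, by up to 2.89 times. The mesenchymal-like fibrillar level of NEJ638 went from 16684 to 4032 CPM with every barcode and to 5123 with separate clustering, and that of NEJ634 from 6358 to 2507 with separate clustering and 1176 with the gate. The endothelial-like fibrillar level went from 222.7 to 58.0 CPM in NEJ687 under stricter limits and from 78.7 to 752 in NEJ723 with separate clustering. The cause was not tested. Leaving out the endothelial-rich sub-clusters and splitting endothelial-like cells by mesenchymal markers were chosen after seeing the data. No paired analysis was possible because the labels give neither groups nor replicate numbers, and for the same reason no library was left out in turn. Intervals cover counting error only. The libraries for which a mesenchymal-like level is given had 17 to 215 such cells, so single cells weigh on every level.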

Other observations

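Collagen was also high in several sub-clusters outside the 3 classes, and 2 small ones had the highest sums. A mesothelial-like sub-cluster of 12 cells held 10502 CPM. A sub-cluster of 26 cells of NEJ634, which its markers named conventional dendritic, held 4245 CPM, was led by Il12b, Fbn1, Mfap5 and Dpt and had mesenchymal markers at 1445 CPM. Unnamed sub-clusters of 265 and 155 cells held 1816 and 1086 CPM, with Col4a1 the collagen of most UMIs in both. The latter had the endothelial genes Kdr and Ptprb among its leading genes.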
